A study of Mus musculus with 30 samples.

Results

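The comparison described here is the RNA response of control (WT) mouse CD4 T cells to 3 days of activation. Its members are the 3 activated WT and the 3 naive WT libraries of the RNA count table, with every row that carries a gene symbol, which makes 6 of the 30 samples of the series. The starting cells were naive CD4 T cells of lymph nodes and spleen, purified with a kit and then sorted by flow cytometry, and the naive group was profiled as such. The activated cells were the same kind of naive cell after stimulation with antibodies to CD3 and CD28. The series also holds matching libraries from animals with a knockout labelled PKA (KO), libraries treated with forskolin after a rest in IL-7, and ATAC-seq libraries, in which a transposase cuts and tags open chromatin. The 3 naive KO and 3 activated KO RNA libraries enter the fit below, and the 6 WT ATAC libraries serve as a second readout. The labels do not name the PKA gene, its alleles or a Cre driver, and give no age or sex. Nor do they tell if replicates are different animals: the tests rest on the spread among these samples, which may be technical.

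A naive CD4 T cell is a small resting cell that circulates between blood and lymph nodes. When its antigen receptor and the costimulatory receptor CD28 are engaged together, calcium, MAP kinase and NF-kappaB signals start transcription of cytokine genes, and PI3K and mTOR signals start growth. The cell then enlarges, enters the cell cycle, switches to aerobic glycolysis and changes its surface receptors.

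Of 25865 symbols, 11980 had enough counts to be tested. After activation 5067 genes were higher, which is 42.3% of those tested, and 4830 were lower, which is 40.3%, at an adjusted p of 0.05 by edgeR's quasi-likelihood test. With so many genes called, a list in which about 4 in 10 members rose is at the background of the whole table. Changes of at least 1 on the log2 scale were fewer, with 3020 genes higher (25.2%) and 2582 lower (21.6%). The very large changes were mostly rises: 573 genes rose by 5 or more on the log2 scale and 102 fell by as much. Either direction together makes 82.6%. In 9920 of the tested genes (82.8%) the 3 naive and 3 activated libraries did not overlap. Levels are given as CPM, counts expressed relative to library size after TMM scaling, in the order of replicates 1, 2 and 3. A log2 fold change is activated minus naive and carries its standard error (SE). The word rose, fell or changed is used of genes past the test, and among the genes so described in the text the largest adjusted p was 0.0323. A gene with no counts in 1 WT group can pass the count minimum only through other groups, the KO groups included. Such genes add to the rises more than to the falls: 204 tested genes had no count in naive WT libraries and 30 had none in activated ones.

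The 6 WT libraries held between 8272201 and 11289133 counts, and 3 counts, the most that a count of 0 allows, equal 0.266 to 0.363 CPM. The 100 most counted genes took 23.6% to 27.3% of the counts in naive libraries and 19.4% to 19.8% in activated ones. Genes at 1 CPM or more numbered 10566 to 10793 in naive and 11225 to 11280 in activated libraries. One library of each group stood somewhat apart. Activated replicate 1 was higher than the others in granule, interferon-stimulated and MHC genes, and naive replicate 3 was higher in ribosomal protein genes. Naive replicate 3 was also higher in nuclear oxidative phosphorylation genes (9245 CPM in sum against 7407 and 7404) and proteasome genes (5089 against 4390 and 4321), and activated replicate 1 in aminoacyl-tRNA synthetases (7066 against 5984 and 6044), ATF4 targets (4819 against 4189 and 4256) and amino acid transporters (2945 against 2565 and 2597). Where leaving out such a library changes a result, this is given beside it.

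**Figure D1:**
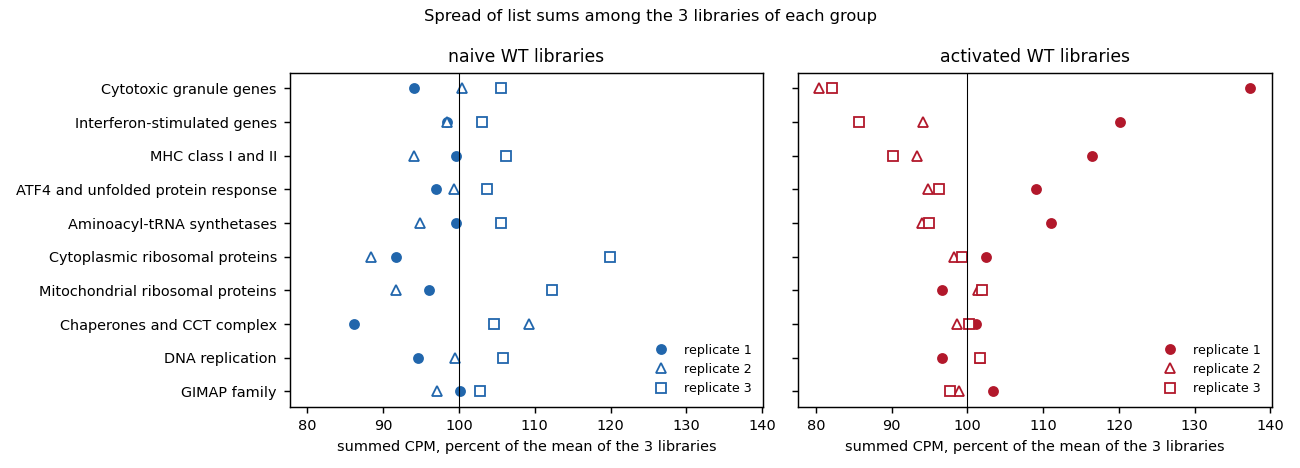
Summed CPM of 10 gene lists in each library, as a percent of the mean of the 3 libraries of its group, for naive WT (left, blue) and activated WT (right, red). Symbols mark replicates 1, 2 and 3. Activated replicate 1 lies to the right of the others for granule, interferon-stimulated and MHC genes, and naive replicate 3 for cytoplasmic and mitochondrial ribosomal proteins.

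The labelled cell type was checked against its markers. All 8 markers of CD4 T cells were present in every library, and all 8 fell. Cd4 itself was 1049, 1158 and 1057 CPM in naive and 505, 568 and 598 CPM in activated libraries, a log2 fold change of -0.97 ± 0.07. The summed level of the 8 genes was 4401 to 5100 CPM before and 2057 to 2119 CPM after activation, with no overlap. In bulk samples fewer cells of a type and less RNA per cell cannot be told apart. The 9 B cell markers summed to 323 to 334 CPM in naive and less in activated libraries, nearly all of it Ighm (319, 330 and 326 CPM in naive and 102, 124 and 111 CPM in activated), while Ms4a1, Pax5 and Ebf1 had at most 3 counts in any library. Of the 4 B cell markers that could be tested 2 were lower and 2 higher, the higher ones being Ighd at 0.433, 0.740 and 0.398 CPM before and 1.30, 1.82 and 1.80 CPM after, and Cd79b at 0.649, 0.555 and 1.73 CPM before and 1.21, 2.55 and 1.97 CPM after. The Cd79b libraries overlapped, and its log2 fold change of 1.04 ± 0.43 was not called without naive replicate 1 (0.84), naive replicate 2 (0.74), activated replicate 2 (0.79) or activated replicate 3 (1.02), and was 1.64 without naive replicate 3. Cd8b1 was 23.8, 24.2 and 24.97 CPM in naive and 9.63, 6.10 and 5.21 CPM in activated libraries. Markers of natural killer cells and neutrophils were at or near 0. The 4 platelet markers summed to 0.93 to 2.13 CPM before and 0.347 to 1.08 CPM after activation. The 4 erythroid markers found went from 1.73 to 7.17 CPM to 0.434 to 0.718 CPM in sum, and 3 of them fell. The 8 markers of monocytes and macrophages summed to 13.1 to 15.3 CPM before and 1.62 to 3.12 CPM after activation. The 6 dendritic cell markers summed to 0 to 0.555 CPM before and 6.38 to 9.02 CPM after, nearly all of it Zbtb46, with Siglech and Clec9a at 0 in every WT library. The 5 markers of stroma and endothelium went from 256 to 294 CPM to 41.1 to 45.9 CPM, nearly all of it Pecam1, which T cells also express. Of the 5 markers of regulatory T cells 3 rose, while Foxp3, their defining factor, fell from 5.30, 4.16 and 4.12 CPM to 0.781, 1.37 and 1.35 CPM. What these cells contribute to the responses below was not tested.

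Several secreted ligands that were at or near 0 in naive libraries were measured clearly after activation. Of the 24 cytokine genes listed, 12 had enough counts to be tested. The other 12, which include Il4, Il10, Il17a and Il21, did not reach the count minimum. A gene silent in naive WT and KO cells is tested only if it is high in activated ones, so no share of risers is read from this list. Il2, the growth factor that T cells make for themselves and their neighbours, was 0, 0 and 0.133 CPM in naive libraries and 272, 301 and 322 CPM in activated ones. A single count was found among the 3 naive libraries, so the ratio of 8220 has a 95% counting interval from 1475 to 324713. Il3, a cytokine acting on myeloid precursors, had no count in naive libraries and 20.2, 10.4 and 16.4 CPM in activated ones, which is at least 145-fold higher when the naive group as a whole is set at 3 counts. Penk, which encodes the precursor of the enkephalin peptides, went from 0, 0.0925 and 0.133 CPM to 46.0, 66.7 and 85.2 CPM. Among the tested cytokines 1 fell: Il16, a chemoattractant stored in resting lymphocytes, at 459, 501 and 544 CPM before and 82.5, 71.0 and 71.2 CPM after.

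The same limit holds for chemokines and effector chemokine receptors, of which 16 of 21 could be tested. Ccl3, a chemokine that draws monocytes and other T cells, was 0.108, 0 and 0 CPM in naive libraries and 89.5, 111 and 117 CPM in activated ones. Ccl4, its neighbour in the genome, reached 102, 106 and 111 CPM from a single count. For Ccl3 the ratio is 2917 with a counting interval from 523 to 115231. Cxcl10, an interferon-induced chemokine, was uneven, at 35.3, 11.8 and 6.10 CPM in activated libraries, and its log2 fold change of 7.71 ± 1.30 was 6.72 without activated replicate 1 and 7.09 without naive replicate 2.

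Ligands of the TNF family act on neighbouring cells at the membrane. Of 14 listed, 12 could be tested, and of these 10 rose and 2 fell. Here too a gene silent in naive libraries, such as Cd70, is tested only through its level in the other groups. No share of risers is therefore read from this list. Tnfsf11 (RANKL) was 4.11, 2.68 and 3.85 CPM in naive and 299, 363 and 414 CPM in activated libraries, a log2 fold change of 6.68 ± 0.16. Tnfsf4 (OX40 ligand) went from 0.216, 0.0925 and 0.266 CPM to 34.4, 35.5 and 40.3 CPM, and Cd70, the ligand of CD27, from no count to 9.46, 9.56 and 13.8 CPM, at least 101-fold higher. Of these 3, Tnfsf11 was low but detected in every naive library, and the others were at or below the floor. Tnf and Lta, the founding members of the family, rose by 3.76 ± 0.20 and 3.37 ± 0.20. Cd40lg, which licenses B cells and dendritic cells, was already present at 78.5, 78.4 and 74.9 CPM and reached 137, 148 and 154 CPM (0.92 ± 0.08). The 2 that fell were Ltb and Tnfsf10. Ltb, the membrane partner of lymphotoxin alpha, dropped from 816, 770 and 968 CPM to 108, 113 and 95.4 CPM, so Lta and Ltb, the chains of the lymphotoxin heterotrimer, moved in opposite directions. For Tnfsf10 (TRAIL) the change of -0.27 ± 0.10 had an adjusted p of 0.0175, the libraries of both groups overlapped, and the call was lost when naive replicate 3 (-0.22), activated replicate 1 (-0.21) or activated replicate 3 (-0.23) was left out, and with scaling by library totals alone (-0.14).

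**Figure D2:**
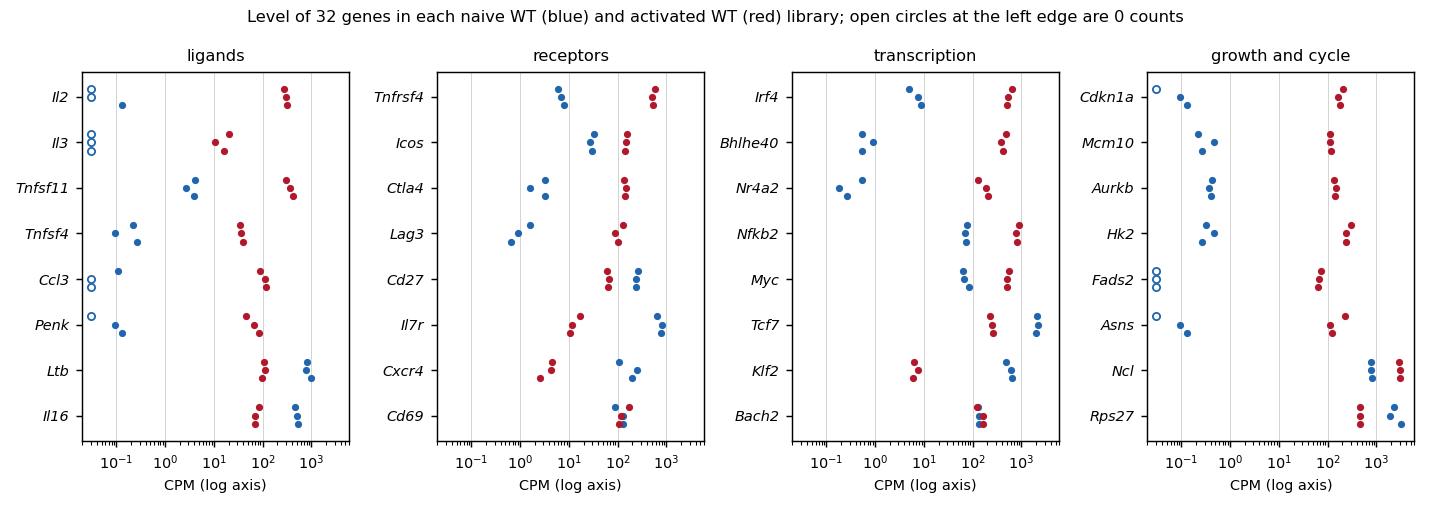
CPM on a log axis of 32 genes in each naive WT (blue) and activated WT (red) library, in panels for ligands, receptors, transcription factors, and growth and cell cycle genes; open circles at the left edge are libraries with 0 counts. The 2 groups are apart for every gene shown except Cd69 and Bach2.

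The antigen receptor and its proximal signalling chain moved the other way. Of 9 genes of the receptor complex and coreceptors 7 fell and 2 rose, with a median log2 fold change of -1.28. Cd247, the zeta chain that carries most of the signalling motifs, was 526, 497 and 676 CPM in naive and 166, 150 and 160 CPM in activated libraries (-1.83 ± 0.12). Cd3g fell by 1.80 ± 0.12 on the log2 scale and Cd3d by 1.47 ± 0.09. The 2 risers, Cd5 and Cd6, are the inhibitory coreceptors of the list, at 0.55 ± 0.07 and 0.33 ± 0.07. Among 25 proximal kinases and adaptors 18 fell and 2 rose (median -0.95). With RLE scaling, an alternative to TMM, 4 rose, and with library totals alone 5 rose, while 18 fell under both. The Tec kinase Txk had one of the largest falls, from 140, 144 and 134 CPM to 7.81, 6.74 and 5.29 CPM (-4.39 ± 0.11), and the adaptor Grap2 fell by 2.48 ± 0.08. Zap70, the kinase recruited to the zeta chain, was not called, at 326, 346 and 375 CPM before and 291, 320 and 324 CPM after.

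Second messenger genes followed the receptor. Of 22 genes for NFAT, calcineurin and calcium entry 14 fell and 4 rose. The calcium channel genes Orai2 and Orai1 parted: Orai2 went from 221, 236 and 220 CPM to 17.4, 19.1 and 16.4 CPM (-3.68 ± 0.08), whereas Orai1, the main pore subunit in T cells, rose from 54.0, 61.0 and 62.3 CPM to 117, 113 and 117 CPM (0.97 ± 0.07). Of 25 genes of the PI3K and mTOR pathway 17 fell and 3 rose. The largest fall was that of Pik3ip1, an inhibitor of PI3K, from 210, 290 and 290 CPM to 6.33, 8.65 and 5.92 CPM. Mtor itself rose by 0.35 ± 0.08. Dgka, which removes diacylglycerol and dampens Ras signalling, was 1382, 1347 and 1158 CPM in naive and 130, 128 and 121 CPM in activated libraries (-3.36 ± 0.08), and Cblb, a ubiquitin ligase that restrains costimulation, rose by 0.67 ± 0.08. In that list of 12 anergy-associated ubiquitin ligases and diacylglycerol kinases 7 genes fell and 4 rose.

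Several feedback inhibitors of MAP kinases rose strongly. Of 13 tested MAP kinase phosphatases and Sprouty genes 10 rose and 3 fell (median 1.61), and 1 of the 13 had no count in 1 of the WT groups. Dusp4, a nuclear phosphatase of ERK, was 0.757, 0.740 and 0.664 CPM in naive and 279, 293 and 322 CPM in activated libraries, a log2 fold change of 8.66 ± 0.12. Dusp14 went from 1 count in all to 35.3, 34.9 and 34.5 CPM, and Spry1 rose by 6.14 ± 0.18. The family was not uniform. Dusp10, a phosphatase of JNK and p38, fell from 69.3, 74.5 and 72.4 CPM to 14.3, 13.5 and 14.0 CPM, and Dusp7 fell by 2.16 ± 0.08 on the log2 scale. In the NF-kappaB list 10 of 15 genes rose and 3 fell. Nfkb2, the precursor of p52, rose from 75.8, 70.8 and 73.7 CPM to 907, 770 and 809 CPM, and Nfkb1 and Rel rose by 1.77 ± 0.06 and 2.46 ± 0.11, while the kinase subunits Ikbkb and Ikbkg fell by 1.34 ± 0.10 and 0.79 ± 0.08.

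The cyclic AMP pathway, whose kinase PKA is the target of the study's knockout, moved in both directions. Of 14 tested genes for adenylyl cyclases and Gs-coupled receptors 6 rose and 7 fell, of 13 PKA subunits, anchors and inhibitors 5 rose and 7 fell, and of 13 phosphodiesterases 5 rose and 6 fell. These shares lie near those of all genes tested. Of 14 genes of the CREB family, its CRTC coactivators and the SIK kinases 4 rose and 9 fell (median -0.73). For the phosphodiesterases the counts were 6 and 6 when libraries were scaled by their totals alone, and for the PKA list they were 6 and 6 without naive replicate 2 or without activated replicate 1. Vipr1, the receptor for vasoactive intestinal peptide, was 306, 345 and 312 CPM in naive and 5.21, 6.38 and 4.22 CPM in activated libraries (-5.93 ± 0.11). In contrast, 2 receptors for other ligands rose: the prostaglandin E2 receptor Ptger2 by 3.03 ± 0.22 and the adenosine receptor Adora2a, from 35.4, 25.1 and 28.4 CPM to 91.3, 86.6 and 85.1 CPM. Pde2a, a phosphodiesterase stimulated by cyclic GMP, fell from 134, 117 and 102 CPM to 1.56, 0.455 and 0.718 CPM. Its log2 fold change of -6.98 ± 0.19 was -7.61 without activated replicate 1. Pde7a, which is specific for cyclic AMP, rose by 1.79 ± 0.10. Of the catalytic subunits of PKA, Prkacb fell from 117, 132 and 122 CPM to 51.8, 54.7 and 55.4 CPM and Prkaca rose by 0.38 ± 0.12. The regulatory subunit Prkar1a was not called, at -0.10 ± 0.08. Without naive replicate 1 it passed the edgeR test as lower (-0.18, adjusted p = 0.0365), and with library totals alone its sign turned (0.03). In the CREB list the coactivator Crtc3 fell from 122, 136 and 128 CPM to 32.8, 34.4 and 35.4 CPM. Crem, a cyclic AMP responsive factor with repressor isoforms, rose by 1.89 ± 0.16, and the kinase Sik1, itself a target of this pathway, rose from 30.9, 23.5 and 19.4 CPM to 116, 106 and 103 CPM.

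Costimulatory and checkpoint receptors moved in both directions. Of 21 tested TNF receptor genes 11 rose and 8 fell, and of 20 genes of the CD28 family and other checkpoint receptors 13 rose and 7 fell. Tnfrsf4 (OX40) was 5.95, 6.94 and 7.83 CPM in naive and 597, 515 and 536 CPM in activated libraries (6.32 ± 0.12), and Tnfrsf9 (4-1BB) rose by 5.81 ± 0.15. Cd27, the costimulatory receptor of naive cells, fell from 256, 236 and 241 CPM to 59.9, 65.1 and 64.4 CPM. Within the CD28 family the inhibitory Ctla4 and the costimulatory Icos rose, Ctla4 from 3.24, 1.57 and 3.19 CPM to 135, 147 and 141 CPM, and Icos from 33.0, 27.1 and 29.6 CPM to 152, 148 and 139 CPM. Cd28 itself fell, from 292, 349 and 296 CPM to 251.4, 216.5 and 212.4 CPM (-0.46 ± 0.08). Lag3, which binds MHC class II, rose by 6.60 ± 0.21. Lair1, an inhibitory collagen receptor, fell from 9.95, 8.23 and 9.43 CPM to 0.694, 0.364 and 0.538 CPM.

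Most genes for placing a naive cell in the lymph node fell, but not all. Of 14 tested genes for lymph node homing and egress 9 fell and 3 rose, with a median log2 fold change of -1.99. Without any single naive library, or without activated replicate 1, 9 fell and 4 rose. The median then lay between -1.47 and -1.40. Cxcr4, the receptor of the chemokine CXCL12, fell from 108, 248 and 199 CPM to 4.60, 4.37 and 2.60 CPM. Ccr7, the chemokine receptor that guides cells into the T cell zone, was 1 of the 3 that rose, from 669, 704 and 803 CPM to 1389, 1278 and 1387 CPM (0.90 ± 0.07). Fut7, which adds fucose to selectin ligands, rose by 3.39 ± 0.34, or 3.98 without naive replicate 2. Cd69, which retains cells in tissue and is usually read as an early activation marker, was not called. It was 88.8, 127 and 129 CPM in naive and 173, 119 and 106 CPM in activated libraries, and the 2 groups overlapped.

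Cytokine receptor chains mostly fell, 17 of 26 against 9 that rose. Il7r, the receptor for the survival cytokine IL-7, was 652, 794 and 773 CPM in naive and 17.1, 11.4 and 10.5 CPM in activated libraries (-5.83 ± 0.17). Il6ra, the binding chain for IL-6, went from 408, 434 and 398 CPM to 13.8, 15.1 and 13.7 CPM. Il2rb, a signalling chain of the IL-2 receptor, rose from 27.9, 25.7 and 21.1 CPM to 360, 310 and 306 CPM, while the common gamma chain Il2rg fell slightly, by 0.41 ± 0.06 on the log2 scale. Inhibitors of cytokine signalling that STAT5 is known to induce rose: Cish from 20.6, 19.2 and 20.9 CPM to 232, 194 and 192 CPM, and Socs2 from 3 counts in all to 46.6, 45.7 and 46.4 CPM. Socs3, an inhibitor of IL-6 family signalling, fell by 2.15 ± 0.30. Over the list of 21 JAK, STAT and SOCS genes 10 rose and 8 fell. The counts were 9 and 9 under upper-quartile scaling or without naive replicate 1, and 8 and 8 without naive replicate 3 or without activated replicate 1.

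Among transcription factors, many genes of the immediate early families were higher on day 3 than in naive libraries. In the list of EGR and NR4A genes 8 of 9 rose and 1 fell, and in the AP-1 and BATF list 11 of 16 rose and 2 fell. Of the tested AP-1 and BATF genes 3 had no count in 1 of the WT groups, and so had 1 EGR or NR4A gene. The limit given for the ligand lists therefore holds for AP-1 and BATF too, and no share of risers is read there. Nr4a2 was 0.541, 0.185 and 0.266 CPM in naive and 131, 188 and 205 CPM in activated libraries (9.01 ± 0.30). Its relatives started higher: Nr4a1 went from 58.1, 41.0 and 40.9 CPM to 575, 707 and 705 CPM, and Nr4a3 from 8.54, 10.4 and 11.02 CPM to 266, 292 and 314 CPM. Egr2 rose by 1.77 ± 0.17 and Junb by 2.28 ± 0.07. Atf3, a stress-induced factor, had no count in naive libraries and 109, 50.8 and 41.5 CPM in activated ones. Batf and Bach2, both known regulators of T cell differentiation, were not called. Batf was 26.6, 27.6 and 36.9 CPM before and 31.1, 31.97 and 35.4 CPM after, and it passed the test when libraries were scaled by totals alone (0.25, adjusted p = 0.041) or without naive replicate 3 (0.26, adjusted p = 0.0279). Bach2 was 128, 137 and 136 CPM before and 121, 162 and 165 CPM after, and it passed without activated replicate 1 (0.30, adjusted p = 0.0193).

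Effector factors rose in 15 of 25 cases and fell in 8. Irf4, which scales with receptor signal strength, was 4.97, 7.49 and 8.90 CPM in naive and 628, 519 and 511 CPM in activated libraries (6.29 ± 0.16). Bhlhe40, needed for cytokine production, went from 0.541, 0.925 and 0.531 CPM to 486, 382 and 413 CPM. Some members of the list fell. Prdm1, which encodes the terminal differentiation factor Blimp-1, went from 7.46, 9.80 and 8.63 CPM to 0.607, 0.273 and 0.538 CPM (-4.15 ± 0.28), and Ikzf3 (Aiolos) fell by 2.83 ± 0.10 on the log2 scale. Factors of the quiescent and naive state fell in 20 of 28 cases and rose in 6 (median -1.52). Klf2, which maintains the trafficking receptors of resting T cells, was 477, 605 and 635 CPM in naive and 6.42, 7.65 and 5.92 CPM in activated libraries (-6.42 ± 0.19). Tcf7, which encodes TCF-1, fell from 2076, 2162 and 2020 CPM to 232, 254 and 263 CPM, and its partner Lef1 by 2.88 ± 0.08. Foxo1 fell by 2.50 ± 0.09. Klf4, often grouped with Klf2, did the opposite, at 0.865, 1.02 and 1.99 CPM before and 19.8, 19.0 and 17.1 CPM after.

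Cell cycle genes rose almost throughout. Of 40 DNA replication genes 39 rose and none fell; the other, the replication protein A subunit Rpa1, was already at 226, 259 and 270 CPM in naive cells and not called (-0.02 ± 0.08). Of 45 mitosis genes 42 rose and 1 fell (median 6.33), or 2 fell without activated replicate 1, and of 25 homologous recombination and damage response genes 23 rose and 1 fell. Mcm10, which helps start replication forks, was 0.216, 0.462 and 0.266 CPM in naive and 112, 114 and 116 CPM in activated libraries (8.40 ± 0.18). Aurkb, the Aurora B kinase, went from 0.433, 0.370 and 0.398 CPM to 134, 146 and 139 CPM. Cdc25c, a phosphatase that activates the mitotic cyclin-dependent kinase, had no count in naive libraries and 12.8, 13.4 and 14.6 CPM in activated ones, at least 125-fold higher. The 2 genes of these lists that fell were Smc4, a condensin subunit at 555, 654 and 595 CPM before and 465, 449 and 459 CPM after, and the kinase Atm (-0.63 ± 0.09). Upstream, Cdkn1b, the inhibitor p27 that holds resting cells in G1, fell from 204, 201 and 238 CPM to 36.3, 37.6 and 36.0 CPM. Cdkn1a, the inhibitor p21, rose from 2 counts in all to 210, 164 and 180 CPM. Ccnd2 rose by 0.46 ± 0.06 from 700, 746 and 739 CPM, and Ccnd3 was not called at 0.10 ± 0.07. With libraries scaled by totals alone Ccnd3 passed the edgeR test (0.23, adjusted p = 0.0111).

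Promoters of these genes are shown because cell cycle genes are known to share short elements: the CHR (TTTGAA) and CCAAT in mitotic genes, and the E2F site (GCGGGAA) in replication genes. Sequences are from RefSeq on GRCm38.p6, end before the transcription start and are printed on the gene's strand, with matches to these letters on either strand in capitals. Ube2c is the ubiquitin-conjugating enzyme of the anaphase-promoting complex, and Cdk1 is the mitotic kinase. Both are mitosis genes that hold a CHR in the 250 bases before the start, with log2 fold changes of 8.21 and 7.59. They are examples, with the largest folds among the called mitosis genes considered that hold a CHR there. Genes on some chromosomes and genes without a promoter sequence were not considered and may have larger folds. Ube2c lies at chr2:164769809-164769928 (plus strand) and Cdk1 at chr10:69352913-69353032 (minus strand), each from 120 bases to 1 base before the start. In both, CHR and CCAAT matches are in capitals.
Ube2c: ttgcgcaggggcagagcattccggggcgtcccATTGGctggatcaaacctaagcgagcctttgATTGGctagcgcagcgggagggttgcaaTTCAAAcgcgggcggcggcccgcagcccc
Cdk1: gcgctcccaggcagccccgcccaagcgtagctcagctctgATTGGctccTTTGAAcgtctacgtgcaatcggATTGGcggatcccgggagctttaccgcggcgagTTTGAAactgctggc
Cdc6, the loader of the replicative helicase, is shown from 198 to 79 bases before its start (chr11:98907953-98908072, plus strand) with its E2F match in capitals. Shmt1, a serine hydroxymethyltransferase, is shown from 120 bases to 1 base before its start (chr11:60811266-60811385, minus strand) with its CCAAT match in capitals.
Cdc6: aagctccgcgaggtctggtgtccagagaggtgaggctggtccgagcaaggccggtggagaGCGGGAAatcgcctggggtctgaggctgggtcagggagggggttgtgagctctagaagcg
Shmt1: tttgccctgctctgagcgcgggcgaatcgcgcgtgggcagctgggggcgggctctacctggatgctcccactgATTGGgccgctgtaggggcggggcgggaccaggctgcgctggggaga

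Over the 250 bases before the start, CCAAT was found in 71.1% of the 38 mitosis promoters in the table and in 34.5% of all 27025 promoters, and the CHR in 34.2% and 16.3%. The E2F letters were in 24.2% of the 33 DNA replication promoters and 3.84% of all promoters, and in 0 of the mitosis promoters, for which the exact binomial 95% upper bound is 9.25%. With the 50 bases after the start included, the CHR was in 68.4% of mitosis and 18.1% of all promoters, and the E2F letters in 42.4% of DNA replication and 4.66% of all promoters. CCAAT was also in 81.2% of the 16 promoters of the serine and one-carbon list. The 5 letters of CCAAT occur often by their shortness, the lists were not chosen apart from the knowledge of such elements, and a match is not evidence of binding. Over all tested genes the promoter table held 78.4%, so motif shares among all risen and all fallen genes were not given. The 27025 promoters include those of genes not tested here, as 9397 tested genes had one. The shares of the lists were therefore not set against tested genes alone.

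Genes that build ribosomes and the proteins of the ribosome parted. Of 49 ribosome biogenesis factors 47 rose and none fell (median 1.32). Of 82 cytoplasmic ribosomal protein genes 70 fell and 2 rose (median -0.79). Ncl (nucleolin) was 759, 787 and 795 CPM in naive and 2967, 3065 and 3107 CPM in activated libraries (1.97 ± 0.06), and Npm1 (nucleophosmin) rose by 1.58 ± 0.08. Rps27, with the largest fall of the ribosomal proteins, went from 2318, 1906 and 3119 CPM to 450, 452 and 453 CPM (-2.44 ± 0.16), and Rpl12 from 3414, 3161 and 4864 CPM to 1545, 1438 and 1477 CPM. The 2 that rose were Rps2, by 0.50 ± 0.10, and Rps27l, a paralog of Rps27 known as a p53 target, from 22.3, 19.6 and 32.8 CPM to 136, 158 and 159 CPM. Taken as a sum, the 82 ribosomal proteins held 140228, 135141 and 183417 CPM in naive and 90018, 86227 and 87168 CPM in activated libraries, so naive replicate 3 was above the other naive libraries and all 3 were above the activated ones. Without naive replicate 3, 69 of the 82 fell and the median was -0.66. CPM are shares of a library, so these values do not say how much ribosomal protein mRNA a cell held.

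**Figure D3:**
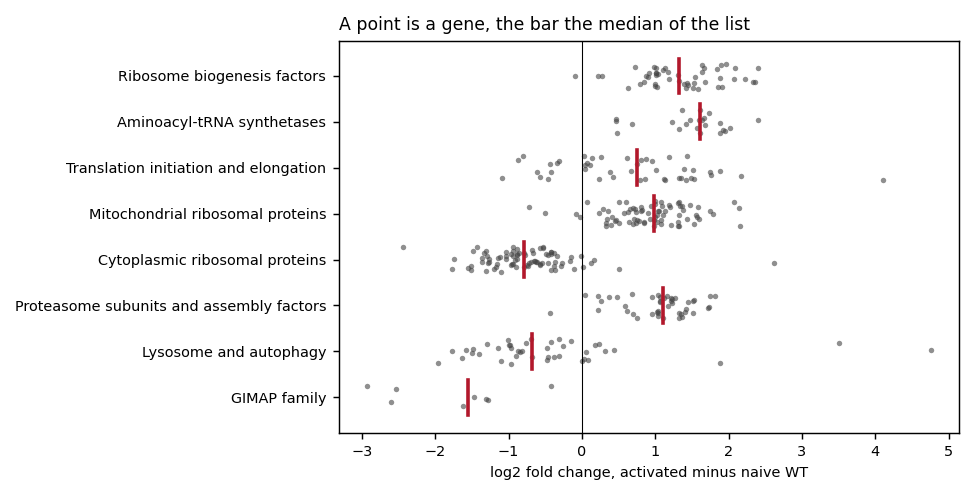
Log2 fold change, activated minus naive WT, of every tested gene in 8 lists, namely lists of protein synthesis and turnover and the GIMAP family. Each point is a gene and the red bar is the median of the list. Cytoplasmic ribosomal proteins lie mostly below 0, with a median of -0.79, and ribosome biogenesis factors above 0, with a median of 1.32.

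The mitochondrial ribosome did not follow the cytoplasmic one: 71 of 77 tested mitochondrial ribosomal protein genes rose and 2 fell (median 0.98), and 73 and 2 did so without naive replicate 3. Mrps10 was 15.4, 13.1 and 14.9 CPM in naive and 66.2, 60.02 and 65.5 CPM in activated libraries. All 23 aminoacyl-tRNA synthetase genes, which charge tRNAs with amino acids, rose (median 1.61), led by the glycine enzyme Gars, from 93.5, 91.7 and 97.7 CPM to 582, 446 and 460 CPM. Among 45 initiation and elongation factors 29 rose and 10 fell, and again the most abundant fell: Eef1a1 was 10830, 11410 and 12250 CPM before and 7502, 6104 and 6063 CPM after (-0.81 ± 0.09). Eif4ebp1, which restrains cap-dependent initiation when mTOR is off, rose by 4.11 ± 0.25, while its relative Eif4ebp2 fell by 0.87 ± 0.08 on the log2 scale. Chaperones rose in 20 of 25 cases and fell in 2, or in 1 when any WT library other than naive replicate 3 was left out. Hsp90ab1 had the largest gain of CPM of all genes considered, from 1545, 2048 and 1767 CPM to 5537, 5395 and 5413 CPM, and the mitochondrial chaperone Hspd1 rose by 3.18 ± 0.08.

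The proteasome and the lysosome moved in opposite directions. Of 45 proteasome subunit and assembly genes 43 rose and 1 fell (median 1.11). Psmd7, a subunit of the regulatory particle, was 70.2, 68.0 and 79.4 CPM in naive and 252, 255 and 258 CPM in activated libraries. The gene that fell was Psmb10, a catalytic subunit of the immunoproteasome (-0.44 ± 0.08). Of 42 tested lysosome and autophagy genes 30 fell and 5 rose (median -0.68), or 28 and 8 with library totals alone. Ctsd, the protease cathepsin D, fell from 372, 401 and 487 CPM to 97.0, 115 and 110 CPM. Gabarapl1, an autophagosome protein, rose from 0.973, 1.20 and 0.797 CPM to 25.9, 28.9 and 28.6 CPM (4.76 ± 0.17).

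Metabolic genes rose in most lists. Of 29 tested genes of glycolysis and the pentose phosphate pathway 25 rose and 1 fell (median 1.81), or 2 fell when any WT library other than naive replicate 1 was left out. Hk2, the inducible hexokinase, was 0.324, 0.462 and 0.266 CPM in naive and 306, 237 and 236 CPM in activated libraries (9.44 ± 0.19), Slc16a3, the lactate exporter, rose by 5.95 ± 0.15, and Ldha, which makes lactate, went from 574, 586 and 767 CPM to 3301, 3037 and 3053 CPM. The gene that fell was Taldo1 (transaldolase), by 0.43 ± 0.08 on the log2 scale. Oxidative phosphorylation genes of the nucleus rose too, but less, with 53 of 77 higher and 7 lower (median 0.65). The 13 protein-coding transcripts of mitochondrial DNA summed to 26494, 26714 and 27795 CPM in naive and 20013, 19443 and 20805 CPM in activated libraries, and of them 1 rose and 7 fell. Regulators of pyruvate entry moved in opposite directions: the pyruvate dehydrogenase kinase Pdk1 fell from 391, 367 and 387 CPM to 150, 133 and 132 CPM and Pdk2 by 2.49 ± 0.17 on the log2 scale, while Pdk3 rose from 17.3, 17.0 and 15.5 CPM to 93.7, 94.1 and 91.5 CPM.

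Building blocks for DNA followed the cell cycle. Of 20 serine and one-carbon genes 15 rose and 1 fell (14 and 2 without activated replicate 1), and of 31 nucleotide synthesis genes 26 rose and 3 fell. Tyms, which makes thymidylate, was 2.70, 3.51 and 3.72 CPM in naive and 103, 127 and 125 CPM in activated libraries. Rrm2, a subunit of ribonucleotide reductase, rose by 7.14 ± 0.14. Shmt1 went from 9.19, 9.43 and 11.2 CPM to 132, 163 and 164 CPM (3.95 ± 0.11). Amino acid transporters rose in 13 of 18 cases and fell in 3: Slc7a5, the large neutral amino acid transporter, went from 78.1, 75.2 and 83.3 CPM to 618, 465 and 465 CPM.

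In the list of ATF4 and unfolded protein response genes 19 of 26 rose and 4 fell. Asns, asparagine synthetase, had the largest rise of the list and went from 2 counts in all to 227, 114 and 121 CPM. Outside this list, Cth, which makes cysteine, had no count in naive libraries and 78.8, 50.1 and 44.4 CPM in activated ones, at least 534-fold higher. For both, activated replicate 1 was above the other 2 libraries. Ern1 and Dnajb9, a sensor and a target of the endoplasmic reticulum arm, fell, Dnajb9 from 24.7, 25.8 and 32.4 CPM to 8.24, 7.38 and 6.46 CPM.

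In the list of cholesterol synthesis and transport 26 of 32 genes rose and 5 fell. The risers include Idi1, an isomerase of the mevalonate pathway, from 17.5, 16.1 and 11.3 CPM to 173, 187 and 186 CPM, and Hmgcs1 by 2.67 ± 0.13. The 3 largest falls of the list were in genes with other roles: Abca1 and Abcg1, which export cholesterol, fell by 3.14 ± 0.15 and 3.38 ± 0.12 on the log2 scale, and Mylip, which degrades the LDL receptor, fell from 104.5, 100.3 and 105.3 CPM to 2.17, 2.82 and 2.15 CPM. Among 24 fatty acid genes 13 rose and 8 fell. Fads2, a desaturase of polyunsaturated fatty acids, had no count in naive libraries and 73.8, 65.2 and 64.3 CPM in activated ones, at least 624-fold higher. Scd2, a stearoyl-CoA desaturase, rose by 3.25 ± 0.19, and Acss1, which makes acetyl-CoA in mitochondria, fell from 55.8, 64.1 and 60.03 CPM to 1.91, 2.64 and 1.08 CPM.

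Of 15 tested BCL2 family genes 9 rose and 3 fell. Bcl2l1, which encodes BCL-XL, rose from 20.3, 16.9 and 23.4 CPM to 408, 395 and 432 CPM (4.36 ± 0.10), while Bcl2, the survival factor of resting cells, fell from 298, 237 and 217 CPM to 103, 71.7 and 60.2 CPM. All 8 GIMAP genes, a cluster of lymphocyte GTPases tied to survival of resting T cells, fell (median -1.55). Gimap3 was 1105, 1126 and 1067 CPM in naive and 152, 144 and 137 CPM in activated libraries (-2.93 ± 0.07), and Gimap6 fell by 2.60 ± 0.09. Within the p53 target list 12 of 18 rose and 4 fell. Plk2, a kinase of that list, went from 0.433, 0.462 and 0.797 CPM to 138, 136 and 133 CPM, and Btg2, an antiproliferative gene, fell by 2.50 ± 0.08.

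For genes of cytotoxic granules, interferon response and antigen presentation the summed level of activated replicate 1 stood above that of the other activated libraries. Of 12 tested granule genes 5 rose and 6 fell. The counts were 5 and 5 when libraries were scaled by totals alone or without naive replicate 1 or activated replicate 3, and 5 and 4 without activated replicate 1, activated replicate 2 or naive replicate 2. Gzmb, which encodes granzyme B, had 2 counts among the naive libraries and 1013, 333 and 295 CPM in activated ones. Its log2 fold change of 12.66 ± 1.25 was 11.86 without activated replicate 1. Ctsw, a protease of cytotoxic cells, fell from 37.9, 46.9 and 40.1 CPM to 1.56, 1.91 and 2.24 CPM. Of 42 interferon-stimulated genes 23 rose, 7 fell and 12 were not called, and without activated replicate 1 the counts were 18 and 10 and the median went from 1.00 to 0.40, while without naive replicate 1 or naive replicate 2 they were 18 and 6. Isg15, a ubiquitin-like modifier, was 17.3, 14.1 and 14.7 CPM in naive and 278, 106 and 75.02 CPM in activated libraries, a log2 fold change of 3.31 ± 0.59, or 2.56 without activated replicate 1. Gbp2, a GTPase induced by interferon gamma, had another order, at 788, 1114 and 1022 CPM in activated libraries against 80.8, 87.5 and 85.5 CPM in naive ones. The class I gene H2-K1 fell from 4437, 4143 and 4879 CPM to 1842, 1534 and 1465 CPM, while Cd74, the class II invariant chain, rose from 3.35, 4.72 and 5.05 CPM to 120, 110 and 92.2 CPM. Beside this rise, the summed B cell markers were lower after activation although Ighd and Cd79b were called higher, and the dendritic cell sum rose through Zbtb46, as given above. Their part in the rise of Cd74 was not tested. The source of the spread between activated libraries was not tested.

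Chromatin modifiers as a group were near the background of the table, with 27 of 56 higher and 24 lower, with large changes in both directions. Uhrf1, which recruits the maintenance DNA methyltransferase to the replication fork, went from 8.22, 6.75 and 7.57 CPM to 393, 405 and 410 CPM (5.75 ± 0.09), and Ezh2, the methyltransferase of the Polycomb complex, rose by 3.47 ± 0.12. The fallers include the DNA dioxygenase Tet1 (-2.95 ± 0.17) and the histone demethylase Kdm7a, from 184, 194 and 177 CPM to 25.9, 18.6 and 24.0 CPM. Their relatives Tet2 and Kdm4a were not called. The direction of the median of this list, -0.10, turned to 0.02 when libraries were scaled by totals alone. Of 26 mRNA decay factors 14 fell and 5 rose, or 12 and 8 with library totals alone. Zfp36, which degrades cytokine mRNAs, was at 162, 169 and 196 CPM before and 31.1, 34.0 and 34.1 CPM after.

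**Figure D4:**
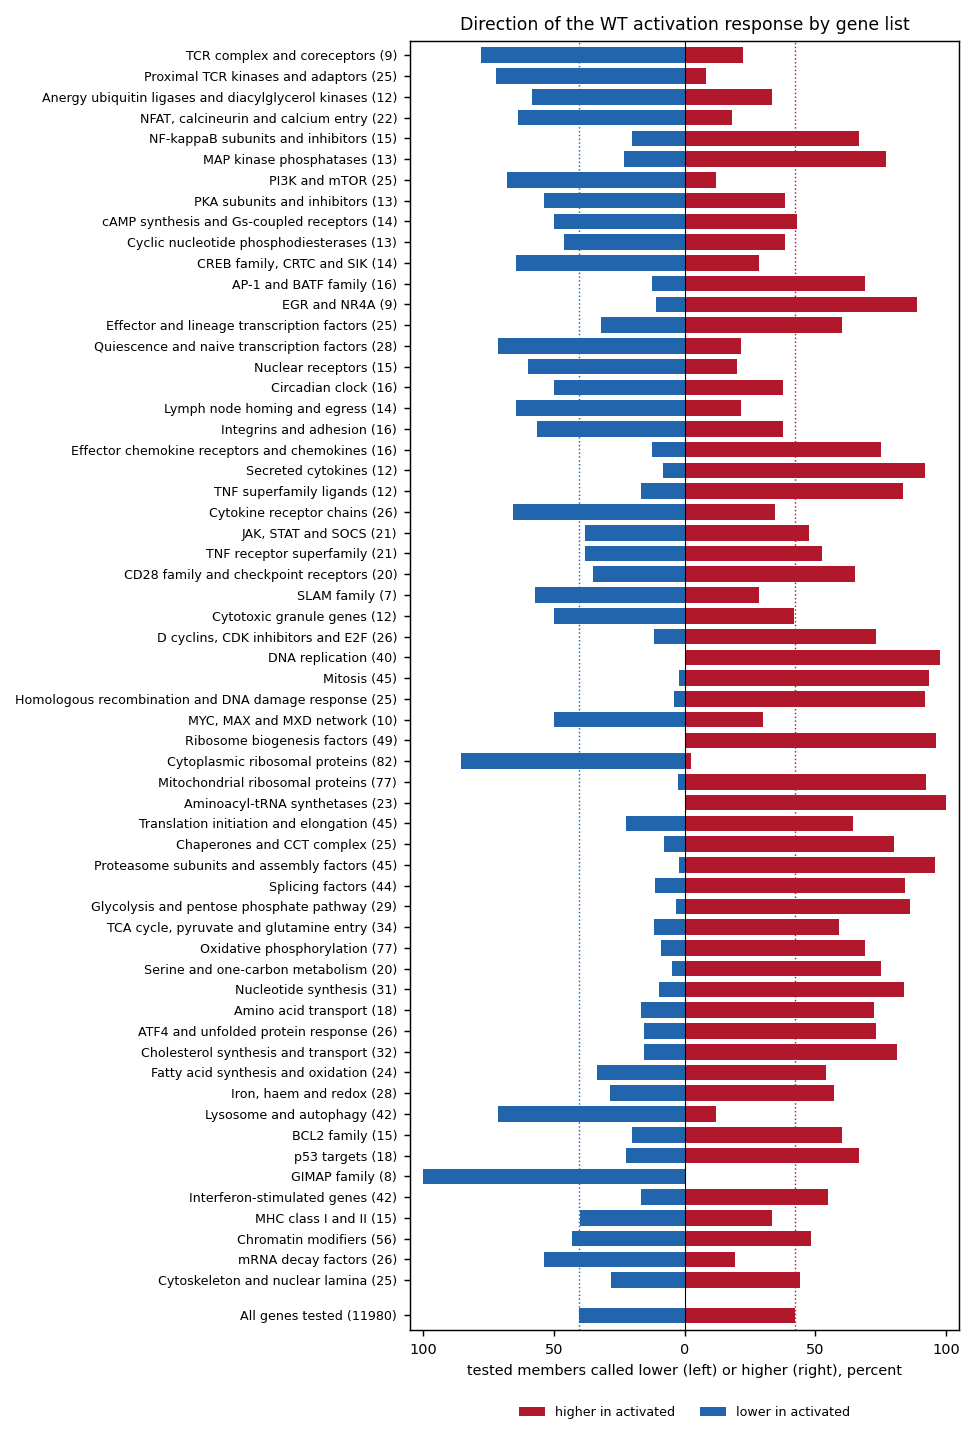
Percent of the tested members of 60 gene lists called higher (red, right) or lower (blue, left) in activated WT libraries, with the number tested in brackets and all genes tested at the bottom; dotted lines mark the 42.3% higher and 40.3% lower of all genes. DNA replication, ribosome biogenesis and aminoacyl-tRNA synthetase lists have no member called lower, and the GIMAP list has none called higher. In the cytokine, chemokine, TNF ligand, and AP-1 and BATF lists, genes silent in naive libraries could be tested only through other groups. No share of risers is read from those bars.

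The genes with the largest changes were not all T cell effectors. Ifitm2, a membrane protein of the interferon-induced family, had no count in naive libraries and 108, 126 and 131 CPM in activated ones, at least 1116-fold higher. Perp, a p53 and p63 target in cell adhesion, reached 76.4, 66.4 and 77.9 CPM from no count, and Dnah7a, an axonemal dynein, 55.7, 54.3 and 52.6 CPM. Slc17a6, a vesicular glutamate transporter, and Lipg, an endothelial lipase, also had no count in naive libraries, and Slc17a6 was at least 262-fold higher. At the other end, Cd7, a surface glycoprotein of T cells, went from 26.4, 36.4 and 37.2 CPM to a single count, and Lrrc75b from 44.7, 23.9 and 23.2 CPM to none, at least 344-fold lower. Slc16a5, a monocarboxylate transporter, fell from 56.2, 58.7 and 57.4 CPM to 0.260, 0.182 and 0.359 CPM. Genes with near-identical copies or neighbours, such as the GIMAP, Ccl3 and Ccl4, ribosomal protein, MHC class I, Ifitm and Dnah7 genes, may share reads, and whether strand was used in counting is not given in the sources used here.

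Open chromatin gave a second view of the same 2 groups, with naive and activated libraries taken from separate tables. Of 110134 sites tested, 51.5% were higher in activated WT libraries and 37.3% lower, on 18522373 to 25318916 counts in sites per library. Sites were linked to a gene when they lay in its span or within 10 kb of it, so that a site can count for more than 1 gene, and 11577 tested genes had at least 1. Over the linked genes 42.6% of sites were higher and 45.8% lower. Around the 1022 genes whose RNA rose by 3 or more on the log2 scale 65.3% of sites were higher and 24.7% lower, and around genes whose RNA fell by 3 or more 27.6% were higher and 61.4% lower. Around genes not called in RNA the shares were 42.3% and 45.3%. The shares depend on scaling, since the median log2 fold change over all sites was 0.58, and 1.07 when libraries were scaled by totals alone. With that scaling 65576 sites were higher and 31972 lower, against 56771 and 41081.

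**Figure D5:**
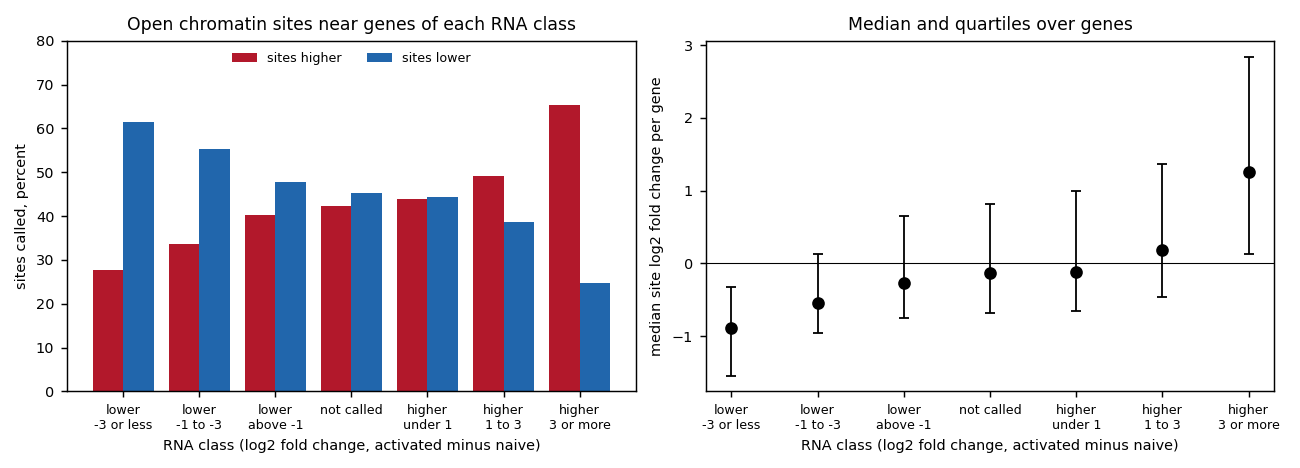
Left, percent of open chromatin sites called higher (red) or lower (blue) in activated WT among sites in or within 10 kb of genes of each RNA class. Right, median (point) and quartiles (bars) over genes of each gene's median site log2 fold change. The median went from -0.89 for genes with RNA log2 fold changes of -3 or less to 1.26 for those of 3 or more.

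Single genes differed in how far chromatin and RNA moved together. All 4 sites of Il2 and all 5 of Ccl3 rose. The Ccl3 promoter site was 0, 0.148 and 0.442 CPM in naive and 13.9, 14.4 and 15.5 CPM in activated libraries (6.29 ± 0.31). The promoter of Fads2 likewise went from 0.839, 0.986 and 1.14 CPM to 37.2, 32.4 and 32.3 CPM. Of 16 sites of Tcf7, 12 fell and 2 rose, and its promoter site went from 39.2, 45.1 and 45.1 CPM to 12.4, 12.3 and 12.5 CPM. GIMAP genes had 67.7% of their sites lower and 17.7% higher. Cell cycle genes showed no such shift: sites of the mitosis list were 41.5% higher and 46.3% lower, and those of the DNA replication list 39.6% and 49.0%, close to all linked genes. The Mcm10 promoter was open in both states, at 42.3, 42.9 and 37.95 CPM before and 37.3, 36.4 and 38.9 CPM after. Batf, whose RNA was not called, lost its promoter site from 63.0, 55.8 and 63.2 CPM to 14.1, 13.7 and 12.4 CPM while 7 of its 8 sites rose. At Prdm1, whose RNA fell, 8 of 14 sites fell, yet a site at chr10:44432199-44432599 opened from 0.0525, 0.148 and 0.189 CPM to 12.7, 9.68 and 9.24 CPM (6.32, adjusted p = 1.02e-10).

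The difference between the WT and the KO response was tested in the same fit for every gene. It passed for 3.7% of the tested genes, with a larger log2 fold change in WT for 2.52% and a smaller one for 1.18%. Larger and smaller refer to the signed value, so a gene that fell less in WT counts as larger. Among the genes described above, Cblb rose in WT (0.67) and fell in KO (-1.18), a difference of 1.85 ± 0.11, and Dusp4 rose by 8.66 in WT and 5.45 in KO. The RNA of Ltb fell by 3.01 in WT and by 1.51 in KO. These 2 contrasts have no library in common, and the other such genes are given with the additional observations.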

How the data were processed

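RNA was measured as raw counts per gene that the authors deposited as 1 table for WT and KO, naive and activated libraries. Open chromatin was measured as counts per site, deposited in 2 tables over the same sites and taken as unscaled. All naive ATAC libraries are in one of these tables and all activated ones in the other. A difference between the tables and an effect of activation therefore cannot be told apart. The genome build was mm10, per the submitters' processing notes. The RNA aligner and counter, and whether counting used strand, are not given in the sources used here. Features without a symbol (0.128% to 0.159% of counts) were left out.

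Counts were tested with edgeR 4.0.16 in R 4.3.3 (limma 3.58.1): genes were kept by filterByExpr, scaled by TMM, fitted over 4 groups (naive and activated, WT and KO) by robust quasi-likelihood and adjusted by Benjamini-Hochberg at 0.05. The difference between the WT and KO responses is the interaction in that fit. ATAC sites were tested likewise in the 6 WT libraries. Alternatives were other scalings, filters and thresholds, DESeq2 1.42.0, limma-voom, a replicate block, and each library left out. The simulated counts had 200 genes changed in either direction and the same spread for every gene. They therefore do not test the scaling when most genes change, as here. In them 91% of genes changed by 1 on the log2 scale and 100% of those changed by 2 were recovered, with 3 false calls among 11029 genes. For ATAC these were 87% and 100%, with 11 false calls among 74022 sites.

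The members and gene lists were chosen with earlier results of these data known. Named genes are a fixed core set, the largest fold changes and CPM changes (without mitochondrial transcripts, unnamed models and receptor segments), the largest called members of each list and up to 2 that moved against their list, and the cell type markers. Genes named outside this rule were chosen after their values were seen. Replicate numbers come from the titles. Same-numbered naive and activated libraries deviated from their group means together (r = 0.409, 0.252 and 0.172). By the rule that every such r exceeds 0.1, the numbers may pair the samples. The main fit leaves the numbers out, so its SEs and p-values use no pairing. The replicate block is the alternative that uses them. Differently numbered libraries 2 and 3 correlated as well (r = 0.182 and 0.156), the others negatively, so only number 1 stands clearly apart. Counting intervals and floors cover counting error only. Ratios are given for Il2 and Ccl3 alone and carry 95% intervals. Other genes with 1 to 3 counts in a group, such as Gzmb and Cdkn1a, carry no counting interval. Any log2 fold change of such a gene rests on those few counts. Promoter sequences are RefSeq on GRCm38.p6 and covered 78.4% of tested genes. A few members of the lists are counted but not reported singly here.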

Additional observations from a re-analysis of the deposited data

Results flagged for a closer look

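In the genes below the activation response differed between WT and KO cells by the interaction test of edgeR, with Benjamini-Hochberg adjustment. Values are log2 fold changes, activated minus naive, and the difference is WT minus KO with its standard error. The adjusted p lay between 1.5e-08 and 0.0477. The fitted responses had opposite signs in Cd5 (0.55 in WT, -0.07 in KO, difference 0.63 ± 0.09) and Cd6 (0.33 in WT, -0.05 in KO, difference 0.39 ± 0.09). Opposite signs were also fitted for Cblb (0.67 in WT, -1.18 in KO, difference 1.85 ± 0.11) and Prkaca (0.38 in WT, -1.20 in KO, difference 1.58 ± 0.29). For a KO response near 0 the sign is not established.

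Both fitted responses were above 0 in Rel (2.46 in WT, 1.45 in KO, difference 1.00 ± 0.15) and Nfkb1 (1.77 in WT, 0.96 in KO, difference 0.81 ± 0.08). Values above 0 in both were found for Dusp4 (8.66 in WT, 5.45 in KO, difference 3.21 ± 0.30) and Spry1 (6.14 in WT, 4.82 in KO, difference 1.32 ± 0.34). Positive values in both were fitted for Adora2a (1.57 in WT, 0.95 in KO, difference 0.62 ± 0.15) and Crem (1.89 in WT, 0.10 in KO, difference 1.79 ± 0.25). The same direction held for Nr4a3 (4.87 in WT, 3.66 in KO, difference 1.21 ± 0.15) and Nr4a1 (3.83 in WT, 2.67 in KO, difference 1.16 ± 0.20). Both were also positive for Klf4 (3.89 in WT, 0.41 in KO, difference 3.48 ± 0.40) and Cish (3.35 in WT, 2.34 in KO, difference 1.01 ± 0.18). Both fitted responses were above 0 in Tnfrsf4 (6.32 in WT, 5.14 in KO, difference 1.18 ± 0.18) and Tnfrsf9 (5.81 in WT, 4.17 in KO, difference 1.65 ± 0.23). Values above 0 in both were found for Ctla4 (5.76 in WT, 3.84 in KO, difference 1.92 ± 0.28) and Cdkn1a (11.09 in WT, 7.98 in KO, difference 3.10 ± 0.74). Positive values in both were fitted for Idi1 (3.59 in WT, 2.96 in KO, difference 0.62 ± 0.17) and Cd40lg (0.92 in WT, 0.07 in KO, difference 0.85 ± 0.11). The same direction held for Il2rb (3.70 in WT, 2.75 in KO, difference 0.95 ± 0.15) and Icos (2.29 in WT, 1.45 in KO, difference 0.84 ± 0.11). Both were also positive for Irf4 (6.29 in WT, 5.08 in KO, difference 1.21 ± 0.23).

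Both fitted responses were below 0 in Orai2 (-3.68 in WT, -3.23 in KO, difference -0.44 ± 0.10) and Ltb (-3.01 in WT, -1.51 in KO, difference -1.50 ± 0.14). Values below 0 in both were found for Il7r (-5.83 in WT, -6.91 in KO, difference 1.08 ± 0.23) and Socs3 (-2.15 in WT, -4.33 in KO, difference 2.18 ± 0.48). Negative values in both were fitted for Psmb10 (-0.44 in WT, -0.02 in KO, difference -0.41 ± 0.11) and Pdk2 (-2.49 in WT, -0.36 in KO, difference -2.14 ± 0.22). Both were also negative for Btg2 (-2.50 in WT, -3.20 in KO, difference 0.70 ± 0.11) and Gimap3 (-2.93 in WT, -2.52 in KO, difference -0.41 ± 0.10). Both fitted responses were below 0 in Tcf7 (-3.06 in WT, -2.63 in KO, difference -0.43 ± 0.11) and Ighm (-1.53 in WT, -0.90 in KO, difference -0.64 ± 0.11). The fall of Cd28 was smaller in WT (-0.463 in WT, -1.005 in KO, difference 0.543 ± 0.12). For Adora2a, Cd28, Cd6, Cdkn1a, Gimap3, Idi1, Il7r, Orai2, Psmb10, Socs3, Spry1 and Tcf7 the difference between WT and KO lost its call in at least 1 setting that left out a WT or KO library, Adora2a only with KO libraries left out. Calls were also lost with upper-quartile scaling (Cd6, Idi1), library totals alone (Cd6, Idi1, Spry1), limma-voom (Idi1, Socs3, Spry1), DESeq2 (Cdkn1a) and no filter on low counts (Il7r, Socs3). With the replicate block Idi1 lost its call (0.62, edgeR adjusted p = 0.0529). The cause of these differences was not tested.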

How the results depend on the processing

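The number of genes called in WT was 5067 higher and 4830 lower, and 3020 and 2582 when a log2 fold change of at least 1 was also asked. Over the other settings (scaling, filter, threshold, tool, replicate block, each library left out) both counts were within 1.5 times of these. The replicate block over the 12 libraries gave 5118 higher and 4887 lower. For the difference between WT and KO responses, 302 genes had a signed log2 fold change that was higher in WT, and 141 one that was lower. At an adjusted p of 0.01 these counts were 166 and 51. With 1 library left out they were between 212 and 315 for higher and between 78 and 182 for lower. For open chromatin, 41081 lower sites became 26823 with the fold threshold, and library totals alone gave 65576 higher and 31972 lower. Scaling by library totals moved the median RNA log2 fold change of all genes from 0.03 to 0.16. The CHR share of mitosis promoters was 68.4% and the E2F share of DNA replication promoters 42.4% over the whole 300-base entry. Of 166 genes in the text, 2 changed sign, both not called in the main analysis: Prkar1a was 0.031 with library totals alone, and Cd69 ranged from -0.017 (without activated replicate 1) to 0.35 when 1 library was left out. The cause was not tested. Of 2988 gene and setting pairs 2951 kept direction and side of the threshold. With 3 libraries a group, changes in genes near the floor of 0.266 to 0.363 CPM rest on few counts.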
